A study of Mus musculus with 6 samples.

Results

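The lysosome genes are the genes that the deposited table annotates with the KEGG lysosome term. That term stands in 127 of 33965 rows, and Cd68, Acp5, Ctsk, Slc11a1 and Slc11a2 were left out of it by name, which leaves 122 genes. They comprise 13 cathepsins, 9 proton pump subunits, 19 adaptor subunits and 81 other members, which fall into 6 roles. RNA was sequenced from 6 tumors labelled MC38, a mouse colon carcinoma line, grown under the skin of C57BL/6 mice, and the comparison asks which of these genes differ in level after treatment. The 3 tumors of the PBS group come from mice given PBS, the vehicle, and the 3 tumors of the GB2 group from mice given GB2, a prodrug in which artesunate, described by the study as an inhibitor of TREM2, is held by a disulfide bond to MSA-2, an agonist of STING. The study's methods give female mice of 6 weeks, and 10 mg/kg is the GB2 dose of its MC38 model, which is not given separately for the sequenced tumors. The labels do not give when tumors were taken or whether each came from its own mouse, so p-values measure the spread between these samples only.

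The lysosome is the acidic compartment in which cells break down proteins, sugars, lipids and nucleic acids delivered by endocytosis, phagocytosis and autophagy. Its hydrolases are made in the endoplasmic reticulum, tagged with mannose 6-phosphate and carried by sorting receptors, clathrin and adaptor complexes, while a proton pump keeps the lumen acidic and cathepsins cut proteins. Almost all cells carry the organelle, macrophages are rich in it, and pigment cells build melanosomes, which are organelles related to it.

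The defining genes of the labelled tissue were checked first. Over 9 epithelial and colon markers and 6 tumors, the highest value was 1.60 FPKM (fragments scaled by transcript length and library size). Epcam, an epithelial adhesion molecule, lay between 0.0744 and 0.456 FPKM, and Cdx2, the intestinal transcription factor, was at most 0.0126 FPKM. Genes of pigment cells were instead measured in all 6 tumors, and several of them were among the most abundant of the table by mean FPKM over the tumors. Tyrp1, an enzyme of melanin synthesis, ranged from 733.5 to 1781 FPKM and ranked 16 among all genes, and Pmel, the protein of melanosome fibrils, ranged from 735.5 to 1840 FPKM and ranked 19. Mlana, a melanosome protein, lay between 169.5 and 814.6 FPKM, Tyr, the first enzyme of melanin synthesis, between 67.7 and 178.5 FPKM, and Sox10, a neural crest transcription factor, between 92.9 and 241.1 FPKM. Trpm1, Gpr143 and Oca2 of the same list stood far lower, with means of 24.4, 11.9 and 9.45 FPKM and ranks of 2206, 4314 and 5187. The summed FPKM of 12 pigment cell genes, a list chosen after these values were seen, was 3339 to 5251 in PBS and 4461 to 5779 in GB2 tumors, so the groups overlapped. The epithelial markers of a colon carcinoma are thus near 0 in every library, and the samples are called tumors labelled MC38, or tumors, throughout. The study also grew tumors of the mouse melanoma line B16F10 in C57BL/6 mice. Whether these libraries come from such tumors was not tested, so the line and the dose given above are those of the label and of the MC38 model.

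The libraries held between 64764405 and 83690056 counts, and the members took 1.43% to 1.66% of them in PBS and 1.57% to 1.85% in GB2 tumors. PBS tumor 1 stood apart from the other 5 on the first principal component of all genes, which carried 34.0% of the variance. For many, but not all, of the roles and genes that it moves, values without it are also given. Of the 122 members, 115 passed the filter on low counts and were tested among 19602 genes. The other 7, namely Ctse, Ctsj, Dnase2b, Hyal4, Hyal6, Lamp3 and Ap3b2, were at most 0.159 FPKM in any tumor, and Ctsj, Hyal4 and Hyal6 were at 0 in all 6.

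As many members as the background of all genes would give passed a rule on size and unadjusted p. Of 115 members 4, or 3.48%, namely Ctss, Ctsh, Laptm5 and Atp6v0d2, were higher in GB2 tumors by 2-fold or more at an unadjusted p under 0.05, and 0 were lower. Over all genes tested the same rule called 3.74% higher and 0.918% lower, so the number of higher members is no result about the list, and the 4 are described as single genes. With Benjamini-Hochberg adjustment over all genes, edgeR's quasi-likelihood test called 0 members and 0 genes in all (0% in either direction), and the smallest adjusted p of a member was 0.193. DESeq2 called the same 4 members higher and 0 lower at an adjusted p under 0.05 and 2-fold, against 1.45% of all genes higher and 0.155% lower. The bulk of the list lay close to 0. The log2 fold change of GB2 over PBS was above 0 for 73 members and below 0 for 42, with a median of 0.081 against -0.016 over all genes, and 48.3% of all genes were above 0. Without PBS tumor 1, 59 of the same 115 were above 0, with a median of 0.003. For 75 members the change was within 1.2-fold and for 103 within 1.5-fold (65.2% and 89.6% of the 115, against 45.9% and 74.9% of all genes). The 95% interval lay wholly within 2-fold for 84 members, or 73.0%, against 42.2% of all genes. The median level of the tested members was 15.8 FPKM against 2.71 over all genes tested, and the part of abundance in these shares was not tested. At an unadjusted p under 0.05 with no limit on size, edgeR gave 5 members higher, the 4 and Lgmn, and 0 lower, against 4.69% and 2.24% of all genes. Of the 115, 8 had all GB2 tumors above all PBS tumors in CPM (counts scaled by the library size after TMM adjustment, and not by transcript length) and 1 had all below, against 8.61% and 6.68% of all genes, so these counts were near or under the background.

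**Figure D1:**
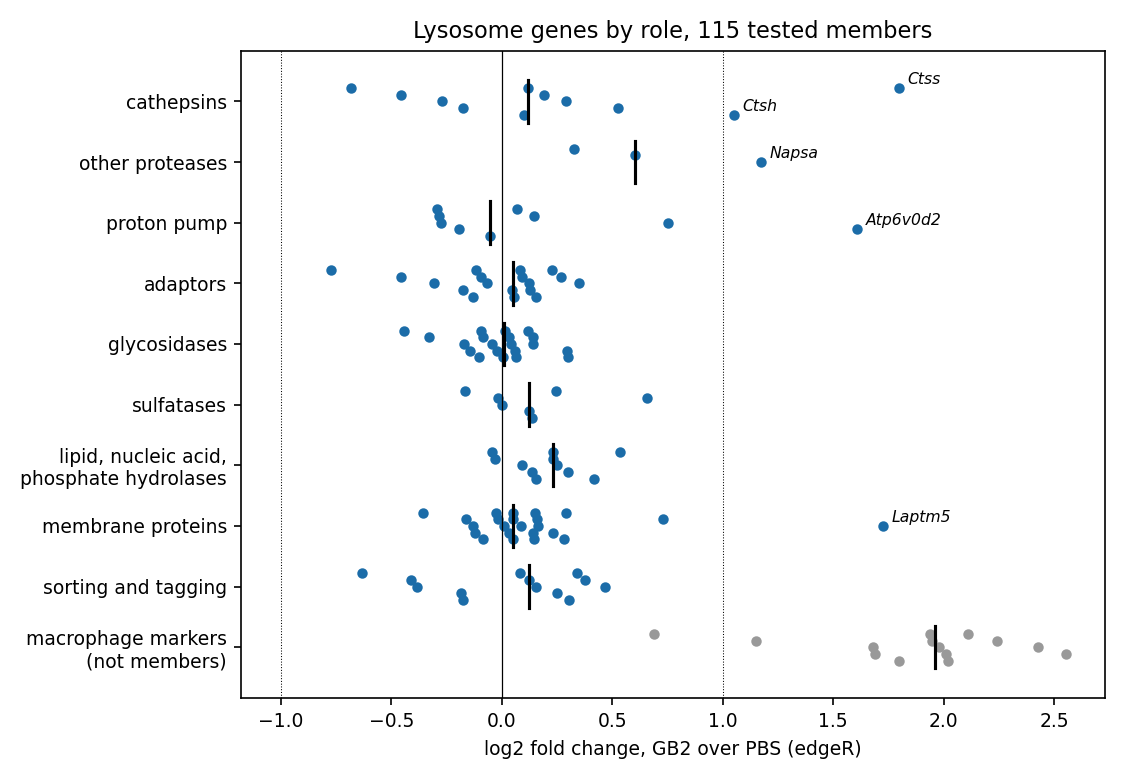
Log2 fold change of GB2 over PBS tumors (horizontal axis, edgeR fit) for each of the 115 tested lysosome genes, as points in rows by role, with the median of a row as a black bar. The 14 macrophage markers in gray are not members, and dotted lines mark 2-fold. Most members lie near 0, while Ctss at 1.80, Laptm5 at 1.73, Atp6v0d2 at 1.61, Napsa at 1.17 and Ctsh at 1.05 lie beyond the line at 2-fold.

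Promoters of 4 members are shown as examples of windows with and without the motifs searched, chosen after their values were seen: Ctss and Laptm5, which were among the 4 higher members, and Ctsd and Lamp1, which were abundant and near 0. The windows run from 250 bases before to 50 after the start and come from RefSeq on GRCm38.p6, at chr3:95526536-95526835 on the plus strand for Ctss, chr4:130913066-130913365 on the plus strand for Laptm5, chr7:142387778-142388077 on the minus strand for Ctsd and chr8:13158911-13159210 on the plus strand for Lamp1. Capitals mark CACGTG, the E-box at the core of the element read by TFEB and its relatives, or GAGGAAGT and its reverse complement ACTTCCTC, letters of the PU.1 motif of myeloid cells.
Ctss: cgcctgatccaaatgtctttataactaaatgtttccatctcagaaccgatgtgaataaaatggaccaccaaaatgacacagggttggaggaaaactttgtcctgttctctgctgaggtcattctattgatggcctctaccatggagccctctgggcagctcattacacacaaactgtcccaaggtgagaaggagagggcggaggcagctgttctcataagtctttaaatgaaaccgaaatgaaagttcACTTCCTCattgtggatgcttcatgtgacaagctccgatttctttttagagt
Laptm5: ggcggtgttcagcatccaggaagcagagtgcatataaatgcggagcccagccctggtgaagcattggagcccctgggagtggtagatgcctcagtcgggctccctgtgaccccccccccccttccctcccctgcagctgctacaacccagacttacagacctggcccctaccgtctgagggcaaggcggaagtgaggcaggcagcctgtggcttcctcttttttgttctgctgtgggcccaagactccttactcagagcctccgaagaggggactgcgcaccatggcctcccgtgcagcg
Ctsd: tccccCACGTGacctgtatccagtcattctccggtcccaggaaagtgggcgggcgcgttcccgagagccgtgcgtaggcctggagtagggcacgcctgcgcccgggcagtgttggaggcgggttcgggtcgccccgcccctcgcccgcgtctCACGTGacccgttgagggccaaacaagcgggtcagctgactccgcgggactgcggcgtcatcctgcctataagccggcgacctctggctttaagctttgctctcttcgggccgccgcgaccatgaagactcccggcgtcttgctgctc
Lamp1: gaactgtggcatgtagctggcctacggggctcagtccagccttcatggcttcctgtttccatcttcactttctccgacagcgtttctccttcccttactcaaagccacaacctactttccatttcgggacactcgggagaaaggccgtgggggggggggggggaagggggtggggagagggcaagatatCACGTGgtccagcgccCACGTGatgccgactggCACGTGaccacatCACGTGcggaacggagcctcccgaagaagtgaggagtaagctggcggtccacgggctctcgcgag

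The Lamp1 window holds CACGTG at 4 places, with first bases 61, 45, 28 and 15 bases before the start, and the Ctsd window at 2 places, 245 and 98 bases before it. The Ctss window holds no CACGTG and a single ACTTCCTC whose first base lies 2 bases before the start, and the Laptm5 window holds neither motif. RefSeq windows were matched for 96 of the 122 members, with 112 promoters. CACGTG, which is its own reverse complement, stood in 25 of these promoters, or 22.3%, against 7.15% of all 32851 promoters of the table. TCACGTGA, which contains CACGTG, stood in 9.82% of member promoters against 0.974%, and the palindromic CLEAR element of 10 bases, which contains both, in 1.79% against 0.326%. GAGGAAGT, searched on both strands and chosen after the expression values were seen, stood in 4.46% against 3.20%. The 24 tested members with CACGTG in a window had a median log2 fold change of 0.051 and ranged from -0.46 to 0.73, while the 67 without it had a median of 0.090 and ranged from -0.77 to 1.80. Of the 10 most abundant members, Ctsd and Lamp1 held CACGTG, and Psap, Cd63, Ctsz, Laptm4a, Atp6v0c, Hexa and Clta did not, while Ctsb was not matched. GAGGAAGT stood in windows of 5 members, namely Ctss, Ctsc at a log2 fold change of 0.29, Ppt2 at 0.30, Gusb at 0.041 and Gla at -0.086. Without PBS tumor 1, Ppt2 was at -0.037 and Gla at 0.22. A match of letters is a description and not a binding site. Of the 4 higher members, Ctss and Laptm5 were among those matched.

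The cathepsins are the proteases of the lysosome, and the level of the family was set by a few of its members. Ctsd, an aspartic protease, had 404.7, 282.4 and 297 FPKM in PBS and 340.3, 456.3 and 341.1 in GB2 tumors. Ctsz, a cysteine carboxypeptidase, had 250, 239.3 and 242.3 FPKM in PBS and 283.1, 297.7 and 247.1 in GB2 tumors. Together these 2 took most of the summed cathepsin FPKM in every tumor, and their groups overlapped. In FPKM the overlap came from PBS tumor 1, and PBS tumors 2 and 3 lay below every GB2 tumor for both genes. The log2 fold changes were 0.12 ± 0.26 (SE) for Ctsd and 0.10 ± 0.18 for Ctsz, with 95% intervals of -0.48 to 0.72 and -0.31 to 0.51. Without GB2 tumor 2 the log2 fold changes were -0.052 and 0.024, and without PBS tumor 1 they were 0.39 and 0.19.

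Ctss, a cysteine protease of antigen-presenting cells that stays active at neutral pH, showed the largest difference of all members. Its FPKM was 11.4, 13.0 and 6.62 in PBS and 28.2, 37.1 and 49.2 in GB2 tumors. Every GB2 tumor was more than 2-fold above the highest PBS tumor in FPKM, and the fitted fold was 3.47 (log2 1.80 ± 0.33, 95% interval 1.03 to 2.56). The unadjusted p was 0.000737 and the adjusted p 0.193 by edgeR, while DESeq2 gave an adjusted p of 9.836e-05. The log2 fold change stayed between 1.54 and 1.98 when each tumor was left out in turn.

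Ctsh, an aminopeptidase, was less abundant than Ctss in every tumor. Its FPKM was 1.78, 1.74 and 1.64 in PBS and 3.19, 3.29 and 4.87 in GB2 tumors, so the PBS tumors were tightly grouped and all GB2 tumors lay above them. The log2 fold change was 1.05 ± 0.24, with an edgeR adjusted p of 0.276 and a DESeq2 adjusted p of 0.0135. Without PBS tumor 3 or GB2 tumor 3 only 1 of the 2 cathepsins passed the limits of 2-fold and an unadjusted p under 0.05.

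Ctsl, the other broad endopeptidase, was also higher in each GB2 tumor than in any PBS tumor, but by little. It had 17.7, 22.2 and 22.1 FPKM in PBS and 24.8, 26.6 and 23.0 in GB2 tumors, a log2 fold change of 0.19 ± 0.16 with an interval of -0.18 to 0.56, or 0.12 without GB2 tumor 2. Ctsb, a cysteine protease with carboxydipeptidase activity, had 67.3, 99.8 and 82.9 FPKM in PBS and 109.3, 164.8 and 102.5 in GB2 tumors. Its groups did not overlap in FPKM but did in CPM, and its log2 fold change of 0.53 ± 0.25 had an interval of -0.05 to 1.11 (edgeR adjusted p = 0.757) and was 0.26 without GB2 tumor 2. Ctsc, which activates granule proteases of leukocytes, was at 0.29 ± 0.21, or 0.14 without GB2 tumor 3, and Ctsa, a carboxypeptidase that protects other hydrolases, at -0.17 ± 0.25 on the log2 scale, or 0.005 without PBS tumor 2. Ctsf, Ctso and Ctsw were low, with means of at most 2.33 FPKM in either group, and had log2 fold changes of -0.46 ± 0.33, -0.27 ± 0.27 and -0.68 ± 0.80. Leaving out a single tumor moved each of them, Ctsf to -0.12 without PBS tumor 3, Ctso to -0.098 without PBS tumor 1 and Ctsw to 0.037 without PBS tumor 2. Ctsw, a protease of cytotoxic lymphocytes, was at 0.0394 FPKM in GB2 tumor 2 and 0.476 FPKM in PBS tumor 2, and it is at the low end of what these libraries measure.

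The summed cathepsin FPKM was 786.3, 720.8 and 708.1 in PBS and 835.3, 1038 and 815.9 in GB2 tumors. Every GB2 tumor was higher in FPKM, the fold of the means was 1.21 (738.4 ± 41.9 against 896.5 ± 123.1, SD, n = 3), and it lay between 1.12 and 1.27 with any tumor left out. In summed CPM the groups overlapped, at 2360, 2169 and 2036 in PBS and 2326, 3137 and 2275 in GB2 tumors. That overlap came from PBS tumor 1 at 2360, and PBS tumors 2 and 3 lay below every GB2 tumor. Most of the summed FPKM is Ctsd, Ctsz and Ctsb. The share of Ctss in the summed cathepsin FPKM was 1.45%, 1.80% and 0.934% in PBS and 3.37%, 3.57% and 6.03% in GB2 tumors. As a percentage of Ctsl FPKM, Ctss was 64.3, 58.4 and 29.9 in PBS and 113.5, 139.4 and 213.8 in GB2 tumors, so Ctss was the lesser of the pair in each PBS tumor and the greater in each GB2 tumor. The exact two-sided permutation test of that ratio gave p = 0.1, the smallest value that 3 against 3 tumors can reach. As a percentage of Ctsb FPKM, Ctsh was 2.64, 1.74 and 1.98 in PBS and 2.91, 1.99 and 4.74 in GB2 tumors, and the groups overlapped (exact permutation p = 0.2). These pairs and the pairs below, 4 in all, were chosen after their values were seen.

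**Figure D2:**
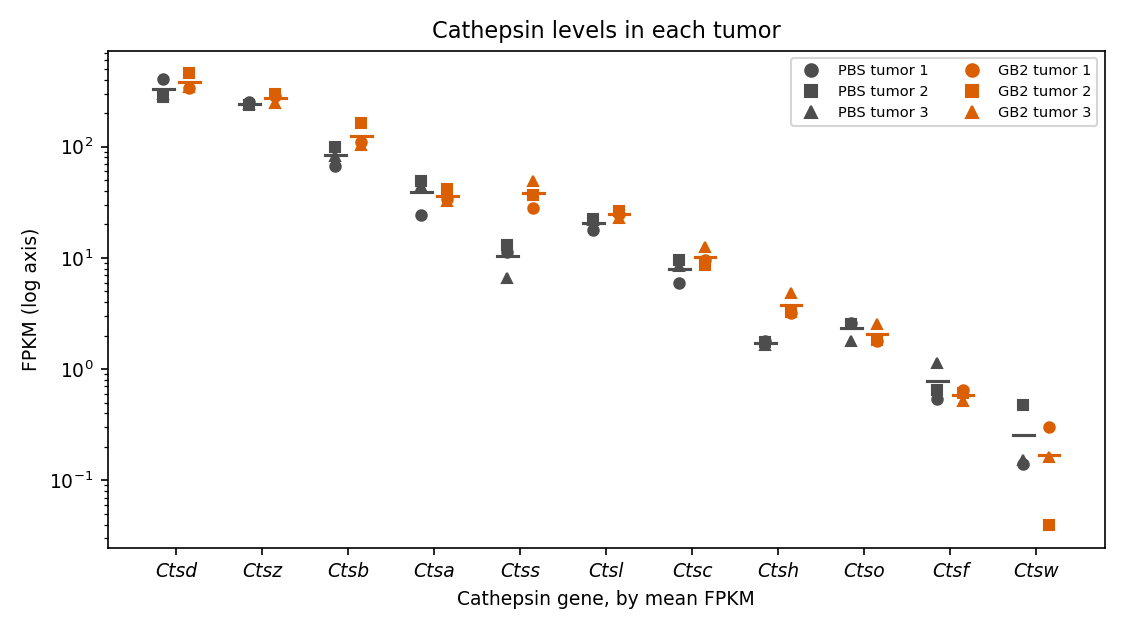
FPKM (vertical axis, log scale) of the 11 cathepsins that passed the filter, ordered by mean FPKM, with each tumor as a symbol (gray PBS, orange GB2) and the group mean as a bar. Ctsd and Ctsz stand at the top with overlapping groups, and Ctss is the cathepsin whose groups lie farthest apart, at 6.62 to 13.0 in PBS and 28.2 to 49.2 in GB2 tumors.

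Outside the cathepsins, Lgmn, the asparaginyl protease that also trims cathepsins to their mature forms, had 29.1, 38.2 and 34.2 FPKM in PBS and 46.5, 50.0 and 65.9 in GB2 tumors. The groups did not overlap, and the fold was 1.52 (log2 0.61 ± 0.19, unadjusted p = 0.0127 and adjusted p = 0.477 by edgeR). Napsa, an aspartic protease of lung and kidney, was at most 0.448 FPKM, and its log2 fold change of 1.17 ± 0.59 had an interval of -0.21 to 2.56. It was 1.79 without PBS tumor 2 and 0.84 without PBS tumor 3. Tpp1, the tripeptidyl peptidase lost in a childhood neuronal storage disease, had 8.94 FPKM in PBS tumor 1 against 38.1 to 47.8 in the other 5 tumors. Its log2 fold change was 0.33 with PBS tumor 1 and -0.095 without it.

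The proton pump (V-ATPase) acidifies the lumen, and its group here holds the 9 members whose symbols begin with Atp6. Of these, 8, all but Atp6v0d2, had log2 fold changes between -0.29 and 0.75. The median over the 9 was -0.054, and 0.047 without PBS tumor 1. Atp6v0d2, the d subunit form of osteoclasts and macrophages, had 0.359, 0.480 and 0.337 FPKM in PBS and 1.40, 1.47 and 0.937 in GB2 tumors. All GB2 tumors were above all PBS tumors, and the log2 fold change was 1.61 ± 0.33 (adjusted p = 0.234 by edgeR and 0.00185 by DESeq2). Its widely expressed counterpart Atp6v0d1 had 89.8, 77.3 and 62.4 FPKM in PBS and 68.0, 65.2 and 67.7 in GB2 tumors, a log2 fold change of -0.28 ± 0.21, which was -0.067 without PBS tumor 1. Atp6v0d2 thus amounted to 0.400%, 0.621% and 0.539% of Atp6v0d1 in PBS and 2.05%, 2.25% and 1.38% in GB2 tumors (exact permutation p = 0.1), a small part of the d subunit transcripts in every tumor. Atp6v0c, the proteolipid ring subunit and the most abundant of these 9, had 190.7 ± 36.4 FPKM in PBS and 177.7 ± 21.7 in GB2 tumors (SD, n = 3). Among the a subunits of this group, Atp6v0a1 was at a log2 fold change of 0.15 ± 0.22, and Atp6v0a4, the kidney form, which was at most 0.441 FPKM, at 0.75 ± 0.67. Without PBS tumor 1 the former was -0.018, and without GB2 tumor 3 the latter was -0.015. Atp6v0b and Atp6v1h were at -0.28 ± 0.25 and -0.29 ± 0.27, and at 0.051 and 0.077 without PBS tumor 1. Each of these intervals includes 0.

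Membrane proteins and transporters counted 24 members, of which 23 were tested. Their median log2 fold change was 0.053 with 16 above 0, and without PBS tumor 1 it was -0.027 with 9 above 0. Laptm5, a transmembrane protein of blood cell lysosomes, had 1.11, 1.76 and 0.774 FPKM in PBS and 3.31, 3.93 and 5.50 in GB2 tumors. The groups were well apart, and the log2 fold change was 1.73 ± 0.36 (adjusted p = 0.234 by edgeR and 0.000642 by DESeq2). Its broadly expressed relative Laptm4a had 171.2, 201.2 and 193.9 FPKM in PBS and 202.5, 192.7 and 193.7 in GB2 tumors, with a log2 fold change of -0.018 ± 0.15. Laptm5 amounted to 0.641% ± 0.238 of Laptm4a in PBS and 2.17% ± 0.613 in GB2 tumors (SD, n = 3, exact permutation p = 0.1). Lamp1 and Cd63, abundant membrane proteins of the organelle, had overlapping groups. Lamp1, a major glycoprotein of its membrane, had 134.7, 179.3 and 219.8 FPKM in PBS and 208.1, 197.6 and 171.8 in GB2 tumors (log2 0.049 ± 0.20). Cd63, a tetraspanin of late endosomes that is also a melanosome protein, had 394.4, 265.6 and 256.4 FPKM in PBS and 305.3, 335.3 and 252.8 in GB2 tumors, a log2 fold change of -0.13 ± 0.27, which was 0.19 without PBS tumor 1. Cln3, a membrane protein lost in juvenile neuronal storage disease, was at 0.73 ± 0.35, or 0.48 without PBS tumor 1, and Tcirg1, the a3 subunit of the pump, at 0.28 ± 0.22, or 0.16 without PBS tumor 1 or GB2 tumor 2, while Npc2, the lumenal cholesterol carrier, was at -0.36 ± 0.24. For Npc2 the value was -0.038 without PBS tumor 1.

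**Figure D3:**
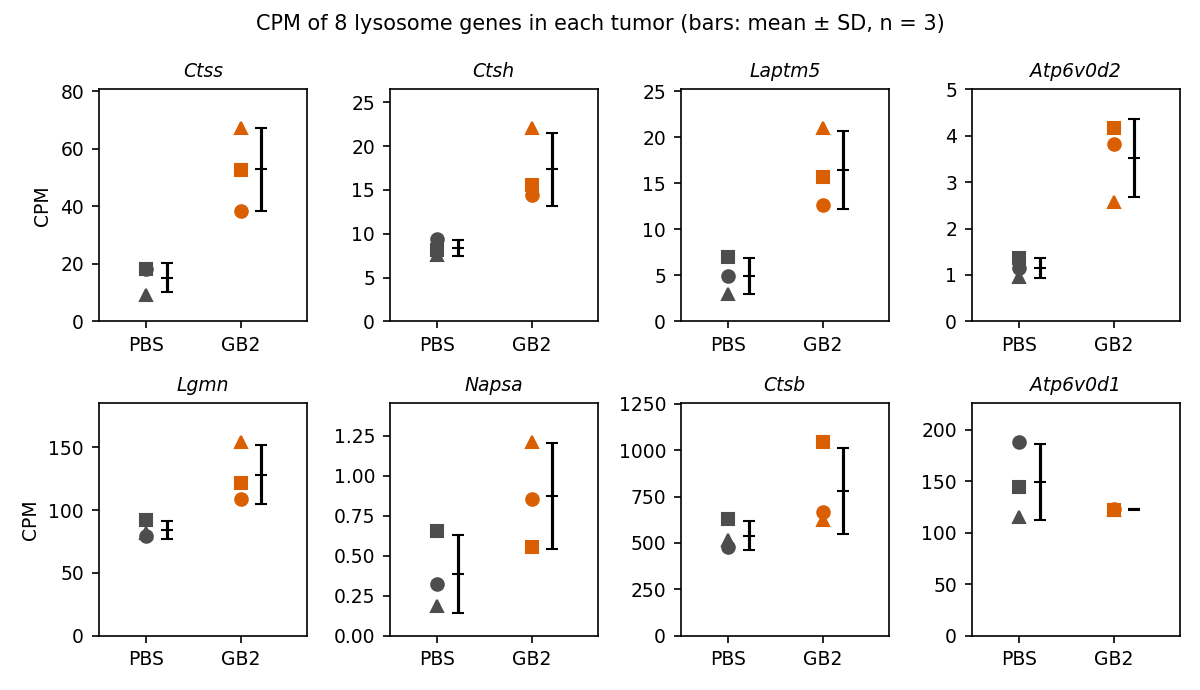
CPM (vertical axis, linear from 0, scaled by library) of 8 lysosome genes in each tumor, gray for PBS and orange for GB2, with the mean and SD (n = 3) beside each group. Ctss, Ctsh, Laptm5, Atp6v0d2 and Lgmn show groups that do not overlap, whereas Napsa, Ctsb and Atp6v0d1 overlap.

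Glycosidases and sulfatases take apart sugars and sulfated chains. Of the 27 tested, 0 passed an unadjusted p under 0.05 by edgeR, against 4.69% of all genes higher and 2.24% lower. Of 20 glycosidases tested, 11 were above 0 and 9 below, with a median log2 fold change of 0.011. All 20 were within 1.5-fold, against 74.9% of all genes. Without PBS tumor 1, 9 of the 20 were above 0 and the median was -0.024. Idua, which acts on dermatan and heparan sulfate, was at -0.44 ± 0.26 with an interval of -1.05 to 0.17, and at -0.20 without PBS tumor 2. Neu1, the sialidase of the lysosome, was the single member with every GB2 tumor below every PBS tumor. Its FPKM was 25.4, 26.1 and 30.9 in PBS and 22.9, 24.9 and 20.98 in GB2 tumors, and the log2 fold change of -0.33 ± 0.16 had an unadjusted p of 0.0779 in edgeR. Hexa, a subunit of beta-hexosaminidase and the most abundant glycosidase, had 117 ± 37.3 FPKM in PBS and 117.6 ± 2.94 in GB2 tumors (SD, n = 3), and its wide PBS spread came from PBS tumor 1 at 159.6. PBS tumors 2 and 3 were at 101.6 and 89.8, below the GB2 tumors at 114.6 to 120.4. The log2 fold change of Hexa was -0.094 ± 0.28 with PBS tumor 1 and 0.29 without it. Of 7 sulfatases, Arsb, which acts on dermatan and chondroitin sulfate, had the largest log2 fold change at 0.66 ± 0.37, and it was at 0.36 without PBS tumor 1. The rest lay between -0.17 and 0.25.

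Among hydrolases of lipids, nucleic acids and phosphates and their activator proteins, 9 of 11 tested were above 0, with a median log2 fold change of 0.23, against 48.3% of all genes above 0. Without PBS tumor 1, 7 of the 11 were above 0 and the median was 0.13. None of the 11 passed an unadjusted p under 0.05 by edgeR, against 4.69% of all genes higher and 2.24% lower. Psap, the precursor of the saposins that lift sphingolipids to their enzymes, was the most abundant of all members at 331.5, 344.1 and 401.4 FPKM in PBS and 441.2, 532 and 356.9 in GB2 tumors. The groups overlapped, and its log2 fold change was 0.23 ± 0.21, or 0.062 without GB2 tumor 2. Lipa, the acid lipase that frees cholesterol from its esters, was at 0.42 ± 0.27, or 0.19 without PBS tumor 1, and Smpd1, the acid sphingomyelinase, at 0.25 ± 0.19, or 0.075 without GB2 tumor 2. Psapl1, a relative of Psap at most at 0.549 FPKM, had all GB2 tumors above all PBS tumors at 0.53 ± 0.36.

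Adaptor complexes and the sorting machinery carry the enzymes and membrane proteins to the lysosome. Of 18 adaptor subunits tested, 10 were above 0 and 8 below, with a median of 0.052, which was -0.002 without PBS tumor 1. Ap3b1, a large subunit of the AP-3 complex that also serves melanosomes, had 12.2, 24.3 and 24.3 FPKM in PBS and 26.5, 28.1 and 25.7 in GB2 tumors. Its groups did not overlap, yet the log2 fold change was 0.35 ± 0.24, and 0.14 without PBS tumor 1. The small subunits Ap4s1, Ap3s1 and Ap1s1 had log2 fold changes of -0.77 ± 0.41, -0.46 ± 0.35 and -0.31 ± 0.25, and without PBS tumor 1 these were -0.18, 0.061 and 0.035. The light chains of clathrin behaved alike: Clta had 171.6 FPKM in PBS tumor 1 against 68.5 to 89.0 in the other 5 tumors, and its log2 fold change was -0.63 with that tumor and -0.034 without it. Igf2r and M6pr, the mannose 6-phosphate receptors, were at 0.47 ± 0.34 and -0.18 ± 0.22, and at 0.16 and 0.040 without PBS tumor 1. Cltc, the clathrin heavy chain, was at 0.38 ± 0.21, and between 0.278 and 0.575 with a tumor left out. Gnptg, a subunit of the tagging enzyme, was at -0.38 ± 0.23, or -0.14 without PBS tumor 1.

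The PBS tumors differed from each other along transcript length. Against the mean of the other 2 PBS tumors, 14 members (12.2%) were lower by 2-fold or more in PBS tumor 1 and 4 (3.48%) were higher, while of 14995 genes with a length 12.3% were lower and 12.5% higher. Those lower were led by Tpp1 at -2.18, Hyal1, a hyaluronidase, at -1.84 and Abca2, a lipid transporter, at -1.76 on the log2 scale, and those higher were Clta and Ap4s1 at 1.32 each, Ap3s1 at 1.18 and Cltb at 1.07. Across the 115 tested members, which are not independent replicates, the difference correlated with the length of the longest protein-coding transcript in the GRCm38 annotation at a Spearman rho of -0.46, against -0.26 over all genes. The same comparison of PBS tumor 2 and of PBS tumor 3 with the other 2 gave 0.24 and 0.48 for the members and 0.14 and 0.25 for all genes, and these differences share the same 3 tumors. Within the GB2 group, tumors 1, 2 and 3 against the other 2 gave -0.077, 0.127 and -0.122 for the members. Over all genes these were 0.133, 0.014 and -0.123. For PBS tumor 1, the shortest members, up to 2445 bases, had a median difference of 0.015, and the longest, from 3492 bases, one of -0.68. Over all genes the shortest (up to 2309 bases) had a median of 0.34 and the longest (from 4016 bases) one of -0.20. Without PBS tumor 1, the 2-fold rule at an unadjusted p under 0.05 still called 4 members higher and 0 lower, against 4.63% and 0.818% of all genes. The part of RNA quality in this difference was not tested.

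**Figure D4:**
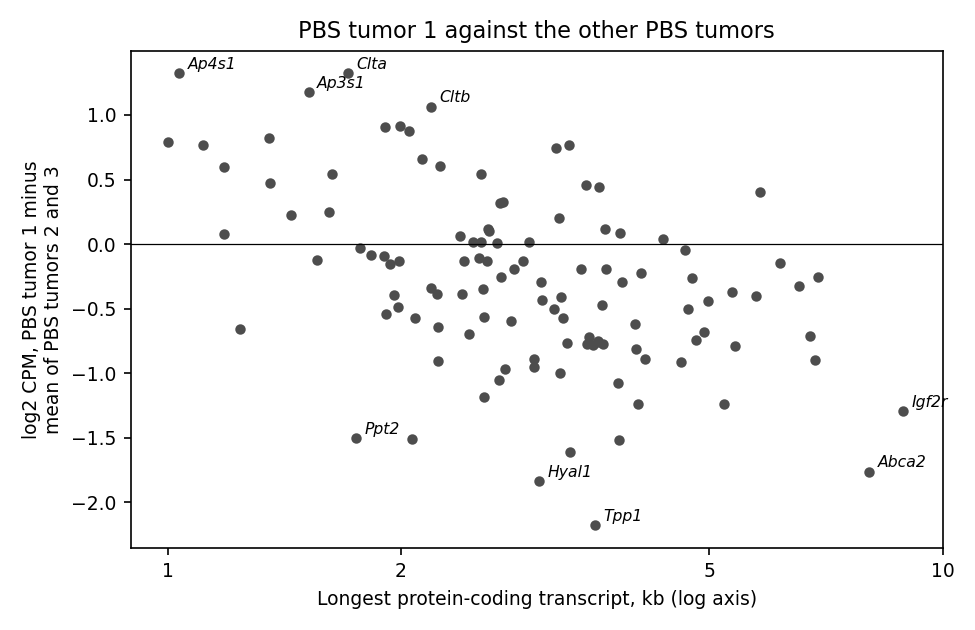
Log2 CPM of PBS tumor 1 minus the mean of PBS tumors 2 and 3 (vertical axis) against the length of the longest protein-coding transcript (horizontal axis, kb, log scale) for the 115 tested lysosome genes. Points below 0 are lower in PBS tumor 1, and the long transcripts of Abca2 and Igf2r lie at -1.76 and -1.29 while the short ones of Ap4s1 and Clta lie at 1.32.

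Genes of the pathway outside the KEGG term were read from 5 lists, and edgeR called none of them at an adjusted p under 0.05, against 0% of all genes. DESeq2 called Cst7 and Ctla2b higher, 2 of 11 cathepsin inhibitors with an adjusted p. It also called Pld4 higher, 1 of 24 other lysosomal proteins, against 1.45% of all genes. Of 8 cathepsin inhibitors tested, 5 were above 0. Cst7, a cystatin of leukocytes, had counts of 0 in all PBS tumors and of 12, 8 and 39 in the GB2 tumors, too few for the edgeR filter (adjusted p = 0.0304 by DESeq2). Cst3, the main secreted cystatin, was at a log2 fold change of -0.28 ± 0.24, which was 0.024 without PBS tumor 1, and Ctla2b, a propeptide-like inhibitor of cysteine cathepsins, at 1.61 ± 0.41 (adjusted p = 0.324 by edgeR and 0.0272 by DESeq2) from 0.278 to 0.501 FPKM in PBS to 0.879 to 1.73 in GB2 tumors. Of 20 regulators of lysosome transcription and nutrient sensing, 9 were above 0 and the median was -0.044. The transcription factors Tfeb, Tfe3 and Mitf, which bind the E-box, were at -0.080 ± 0.27, 0.069 ± 0.22 and 0.011 ± 0.23. With a tumor left out each changed sign, from -0.28 to 0.22 for Tfeb, from -0.10 to 0.21 for Tfe3 and from -0.19 to 0.15 for Mitf. Mitf, which also drives pigment genes, had 58.4 to 97.6 FPKM in PBS and 80.2 to 87.7 in GB2 tumors, far above Tfeb and Tfe3, each at most 8.27. Their relative Tfec, found in macrophages, was at 1.57 ± 0.49 (edgeR adjusted p = 0.498) but at most 0.148 FPKM. Lamtor2 and Lamtor4 of the complex that anchors nutrient sensing at the lysosome were at -0.77 ± 0.36 and -0.95 ± 0.45, each with its highest level in PBS tumor 1, and at -0.21 and -0.18 without it.

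Of 12 V-ATPase subunits outside the term, 5 were above 0 and the median log2 fold change was -0.20, which without PBS tumor 1 turned to 8 above 0 and 0.087, with Atp6v1a, the catalytic subunit, at 0.32 ± 0.27 (0.15 without GB2 tumor 2) and Atp6v1e1 at -0.66 ± 0.39. Atp6v1e1 was at 186.9 FPKM in PBS tumor 1 and 76.7 to 81.4 in the other 5 tumors, and its log2 fold change was -0.013 without that tumor. Of 22 genes of lysosome positioning and fusion, 9 were above 0, and Plekhm1, a fusion adaptor, was at 0.47 ± 0.22 (0.28 without GB2 tumor 2) and Borcs6, which helps to place lysosomes, at -0.72 ± 0.31, or -0.28 without PBS tumor 1. Of 24 other lysosomal proteins, 15 were above 0. Pld4, an exonuclease of phagocytes, had 0.387, 1.05 and 0.352 FPKM in PBS and 1.69, 1.30 and 3.37 in GB2 tumors (log2 1.74 ± 0.53, adjusted p = 0.465 by edgeR and 0.0318 by DESeq2), and Slc15a3, a peptide and histidine transporter of phagocytes, was at 1.32 ± 0.39, while its relative Slc15a4 was at -0.46 ± 0.17.

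Ctss, Laptm5 and Atp6v0d2 are known as genes of macrophages and other blood cells, and markers of cells other than tumor cells were higher in the same tumors. In bulk RNA, more cells of a type and more RNA per cell cannot be told apart. All 14 macrophage markers were above 0, with a median log2 fold change of 1.96, and 12 were higher at an unadjusted p under 0.05 and 2-fold by edgeR. Of all genes tested, 48.3% were above 0 and 3.74% were higher by that rule. Their summed FPKM was 37.7 to 51.2 in PBS and 157 to 230.3 in GB2 tumors, and none was at 0 in all tumors. DESeq2 called 11 of the 14 higher, against 1.45% of all genes, and edgeR 0, against 0%. Lyz2, the lysozyme of myeloid cells, led in level with 22.5 FPKM in PBS and 101.8 in GB2 tumors. All 9 fibroblast markers and 7 of 8 endothelial markers were above 0 too, with summed FPKM of 37.9 to 64.5 against 121.1 to 176.8 and of 7.66 to 11.1 against 20.6 to 23.7. Neutrophil markers summed to 2.72 to 5.73 FPKM in PBS and 9.83 to 13.5 in GB2 tumors, with Ly6g and Mpo at 0 in all tumors, and mast cell markers to 0.896 to 0.939 and 2.45 to 4.98. Markers of dendritic cells summed to 0.974 to 1.22 and 1.54 to 1.65 FPKM, and those of skin and muscle to 42.5 to 63.8 and 93.5 to 112.7. Markers of T and NK cells and of B cells overlapped between the groups. The epithelial markers summed to 2.30 to 2.65 in PBS and 2.67 to 5.17 FPKM in GB2 tumors.

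The levels of the 4 members were also expressed as a percentage of the summed FPKM of a marker list. The means of Ctss, Laptm5 and Atp6v0d2 were lower in GB2 than in PBS tumors against the macrophage sum and higher against the fibroblast and endothelial sums, and that of Ctsh was lower against all 3. Groups overlapped in each of these except Ctsh against the macrophage sum. Lgmn and Ctsb were also lower against the macrophage sum without overlap, at 65.6% to 90.6% in PBS and 27.6% to 31.8% in GB2 tumors for Lgmn and 151.7% to 219.9% and 44.5% to 104.9% for Ctsb. The macrophage sum had means of 44.45 FPKM in PBS and 185.3 in GB2 tumors. The fitted folds of Lgmn and Ctsb were 1.52 and 1.44. A gene that rises less than the sum has a lower share of it, so these lower shares are no separate result. Ctss was 25.7%, 25.4% and 17.5% of the macrophage sum in PBS and 16.7%, 23.6% and 21.4% in GB2 tumors. It was 21.1% ± 4.26 of the fibroblast sum in PBS and 25.9% ± 5.96 in GB2 tumors, and 110.7% ± 41.7 and 169.8% ± 44.2 of the endothelial sum (SD, n = 3). Ctsh was 3.91% ± 0.482 of the macrophage sum in PBS and 2.03% ± 0.124 in GB2 tumors, 3.68% ± 0.866 and 2.54% ± 0.327 of the fibroblast sum, and 18.4% ± 4.14 and 16.7% ± 3.50 of the endothelial sum. The share of Ctsh was thus lower in GB2 tumors without overlap for the macrophage sum and with overlap for the other two. Laptm5 was 2.67% ± 0.706 of the macrophage sum in PBS and 2.29% ± 0.284 in GB2 tumors, 2.43% ± 0.353 and 2.87% ± 0.538 of the fibroblast sum, and 12.7% ± 4.37 and 18.9% ± 4.50 of the endothelial sum. Atp6v0d2 was 0.879% ± 0.0650 of the macrophage sum in PBS and 0.722% ± 0.278 in GB2 tumors, 0.815% ± 0.0722 and 0.896% ± 0.343 of the fibroblast sum, and 4.13% ± 0.685 and 5.69% ± 1.60 of the endothelial sum. These percentages were chosen after the values were seen. The part of macrophage, fibroblast or endothelial RNA in the higher levels of the 4 members was not tested. Nor was the part of neutrophil, mast cell, dendritic cell, skin or muscle RNA, whose marker sums were also higher in GB2 tumors.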

How the data were processed

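Poly-A RNA of 6 tumors was sequenced, 3 per group, as paired-end stranded libraries. The authors deposited, for each gene, an estimated count per tumor as a whole number that is not scaled between tumors, and an FPKM value scaled by transcript length and library. The submitters' processing notes name cutadapt 1.9, HISAT2 2.2.1, StringTie 2.1.6, DESeq2, edgeR and mm10. The gene positions of the table match the GRCm38 annotation for 641 of 31999 shared IDs, so none is printed; promoter windows are those of GRCm38.p6. Low counts pile up at multiples of 4 (7017 values of 4 against 2984 of 3 and 2017 of 5), so a count is not 1 read pair and counting error is understated.

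Counts were tested in R 4.3.3 with edgeR 4.0.16 (filterByExpr with a minimum count of 10, TMM scaling, glmQLFit and glmQLFTest, Benjamini-Hochberg over 19602 genes). Calls were made at 2-fold or more with an adjusted p under 0.05. Standard errors come from the test statistic, CPM use the TMM-scaled library, and log2 CPM a prior count of 2. With a common dispersion of 0.164, tumors of the same group vary by 40.5%, and this spread sets what 3 per group can show. Single ratios were compared by exact two-sided permutation over tumors. The computations were tested on simulated counts. Alternatives were DESeq2 1.42.0, limma 3.58.1 on log2(FPKM + 1) and log2(FPKM + 0.1), RLE and upper-quartile scaling, no filter, a replicate block, counts divided by 4, and each tumor left out.

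The members and lists were chosen with earlier results of these data known. Named genes are all tested cathepsins, the 3 higher and 3 lower members with the smallest p in each other group or role, the 10 most abundant members and for every pathway list the 2 genes of smallest p per direction; others named were chosen after their values were seen. Roles of 5 members (Fuca2, Hyal2, Hyal3, Hyal4 and Hyal6, placed with the glycosidases) and the pigment cell list were added after the table was opened. The labels give no batch.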

Additional observations from a re-analysis of the deposited data

How the results depend on the processing

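With DESeq2, also on counts divided by 4 (an alternative chosen after seeing the data), 4 members and 2 cathepsins were called higher in place of 0 (1.45% and 1.33% of all genes). At an unadjusted p under 0.05 and 2-fold, limma on log2(FPKM + 1) gave 2 members (against 0.499% of all genes) and 1 cathepsin higher in place of 4 and 2, a pseudocount under which low genes understate their change. With a tumor left out, the members so called ranged from 3 to 5 higher and 0 to 1 lower (2.49% to 4.63% and 0.605% to 2.65% of all genes), and the cathepsins from 1 to 2 higher. The 1 lower was Ap4s1 without PBS tumor 3 and Abcb9 without GB2 tumor 3, and Ctsh was not called without either of these tumors. Members with all GB2 tumors above all PBS tumors numbered 8 (8.61% of all genes) and 10 to 18 with a tumor left out (11.6% to 15.9%), and those below 1 (6.68%), 2 with RLE scaling (6.98%) and 2 to 8 with a tumor left out (9.80% to 14.7%), where fewer tumors make separation easier. The median of lysosome positioning genes, -0.031, ranged from -0.028 to 0.013 on the log2 scale with a tumor left out. Tumor numbers do not pair the tumors (correlations of deviations 0.031, 0.15 and -0.25), and with the replicate block 0 members were called, 4 were higher at an unadjusted p under 0.05 and 2-fold (3.24% of all genes), and the median was 0.079. Of 80 named genes, 56 kept their sign under every alternative run. The other 24, none of them called by edgeR, changed sign. Tfeb, Tfe3 and Mitf, which are not among the 80, changed sign with a tumor left out. Over the tumors left out, 15 changed sign without PBS tumor 1, namely Ap1m1 from -0.000 to 0.29, Ap3s1 from -0.69 to 0.061, Ap1s1 from -0.47 to 0.035, Man2b1 from -0.042 to 0.62, Ppt1 from -0.067 to 0.012, Tpp1 from -0.095 to 0.65, Atp6v0a1 from -0.018 to 0.27, Atp6v0b from -0.42 to 0.051, Atp6v1h from -0.45 to 0.077, Cltb from -0.62 to 0.050, Cd63 from -0.27 to 0.19, Lamp1 from -0.056 to 0.20, Atp6v0c from -0.34 to 0.047, Hexa from -0.28 to 0.29 and Cst3 from -0.42 to 0.024. Another 9 did so without another tumor, namely Ctsd from -0.052 to 0.39, Ctsa from -0.38 to 0.005, Ctsw from -1.36 to 0.037, Acp2 from -0.14 to 0.080, Entpd4b from -0.32 to 0.14, Atp6v0a4 from -0.015 to 1.11, Arsg from -0.38 to 0.35, Ids from -0.14 to 0.14 and Laptm4a from -0.029 to 0.008. With limma on FPKM at pseudocounts of 1 and 0.1, the values above 0 were Acp2 0.035 and 0.040, Ppt1 0.042 and 0.045, Arsg 0.002 and 0.013, Ids 0.066 and 0.074, Laptm4a 0.059 and 0.059, Hexa 0.051 and 0.052, and at 0.1 Entpd4b 0.003. The cause was not tested.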
